A study of Komagataella phaffii with 102 samples.

Results

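The genes described here are the 209 genes of the yeast Komagataella phaffii (Pichia pastoris) whose gene model in the deposited annotation has exactly 2 exons. They were selected by counting the exon features of each gene, with no expression value used, and they make up 4.09% of the 5116 genes in the deposited expression tables. Another 4871 genes have a single exon and 29 have 3 or more.

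The study sequenced the RNA of 11 nontransgenic strains, each grown in 3 conditions. Every culture started in BMGY, a buffered complex medium with 4% glycerol. It was sampled after 24 h (24 h glycerol, 36 libraries), after a further 24 h in fresh BMGY (48 h glycerol, 28 libraries), or after a further 24 h in BMMY, the same base with 1.5% methanol (methanol, 38 libraries). The 33 combinations of strain and condition hold 1 to 7 libraries, and 24 of them hold 3. Y-11430 is the strain whose assembly and gene models were used for all libraries. Y-48124 and the laboratory strains X-33 and GS115 are closely related, and GS115 needs histidine because of a mutation in HIS4. The study reports that Y-48124 and X-33 carry another substitution at the same HIS4 position and grow slowly without histidine. Both also have an RCR2 mutation that GS115 lacks, and X-33 has a further one in RVB1. The reference strains of the study are Y-48124, Y-48123 and Y-12729, and its Cluster 2 holds Y-7556, YB-4290, YB-4289 and YB-378. The study formed these groups from the same libraries, so a difference between them is not independent evidence that the groups exist. Y-7556 and YB-4290 have identical genomes, and Y-17741 is the most divergent strain. The labels do not say whether the libraries of a strain and condition came from separate cultures, and the study speaks of independent replicates for its growth measurements. The p-values measure the spread between libraries of a strain, which may be technical.

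Introns are removed from a primary transcript by the spliceosome, which recognizes the exon and intron boundaries and a branch point inside the intron. Budding yeasts have few introns, and most of their intron-containing genes have a single one near the start of the gene. In Saccharomyces cerevisiae, many genes for ribosomal proteins contain introns, and spliced transcripts take a large part of the mRNA of fast-growing cells. The gene identifiers of the files are not paired with names here, and 0 of the 209 two-exon genes matched the reference gene table, so no function is given for any of them.

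Library totals ran from 70901 to 16336681 estimated counts, with a median of 3810597, and 6 libraries had fewer than 1000000. Annotated features that are not in the tables took between 5.36% and 46.2% of all TPM in a library. TPM, the unit of all levels here, are the reads of a gene corrected for its length and scaled to a fixed total per library. The shares given for two-exon genes are therefore shares of the TPM of listed genes. Over their profile across single-exon genes, 5 libraries stood apart from the others of their strain and condition. These were X-33 methanol C, Y-12729 methanol B, Y-48123 methanol C, Y-48124 methanol C and Y-48124 48 h glycerol D, and results that rest on them are also given without them.

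The intron, taken as the gap between both annotated exons, was short in most of these genes. Over the 207 genes with a gap, its length ran from 45 to 963 bases with a median of 61 (interquartile range 54 to 87). In 98 of them (47.3%) it measured 45 to 60 bases and in 167 (80.7%) at most 100 bases. Another 29 introns were over 100 and up to 300 bases long and 11 (5.31%) were longer. The shortest belonged to GQ67_01693 and GQ67_02790, at 45 bases each, and GQ67_03433, at 46 bases. The longest belonged to GQ67_03026 (963 bases), GQ67_03509 (927 bases) and GQ67_04305 (675 bases). In the other 2 genes, GQ67_01001 and GQ67_02139, the annotated exons overlap each other, and they have no intron length.

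**Figure D1:**
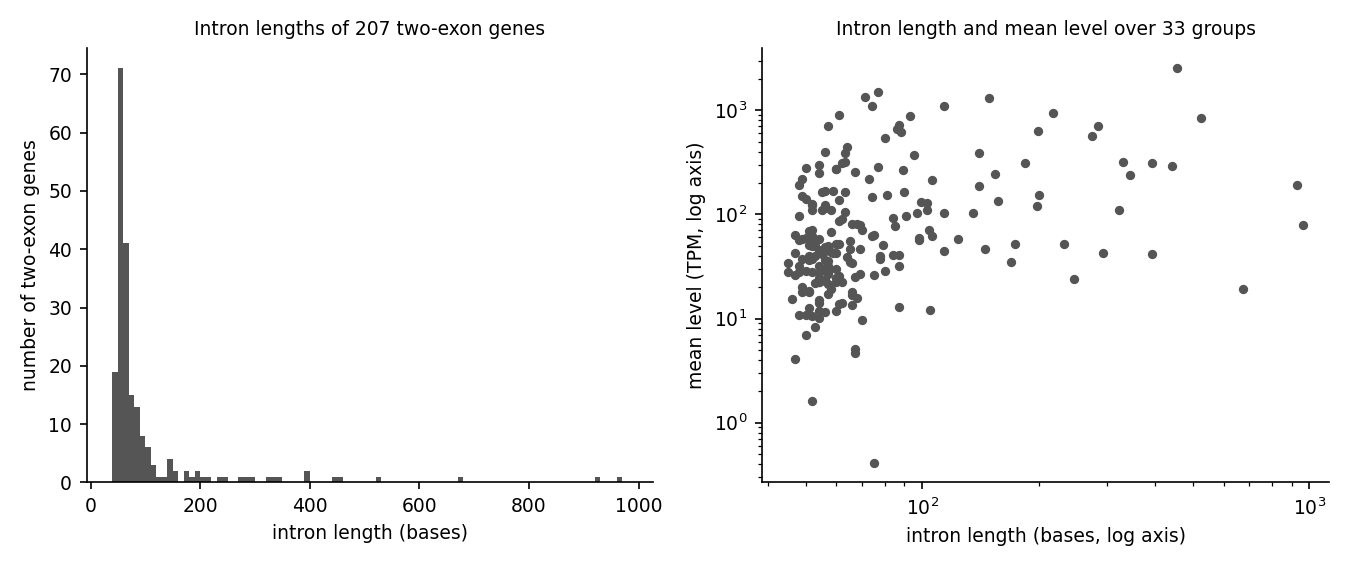
Left, the number of two-exon genes (vertical axis) by intron length in bases (horizontal axis, bins of 10 bases). Right, each gene's mean level in TPM over the 33 strain and condition groups against its intron length, both on log axes; each point is 1 of 207 genes. Most introns measured at most 100 bases, and 8 of the 11 genes with introns over 300 bases had a mean level above 100 TPM.

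The introns sat near the start of their genes. Counted in the direction of transcription, the first exon had a median of 92 bases (3 to 4333) and the second a median of 1128 bases (55 to 7229). The first exon was the shorter one in 184 of 207 genes (88.9%). The median gene had 7.56% of its exon bases before the intron, and in 172 genes (83.1%) the intron lay in the first 25% of the exon bases. It lay in the last 25% in 12 genes. Summed exon length was alike, with a median of 1359 bases in two-exon and 1383 in single-exon genes.

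Most introns interrupted the coding region. In 180 genes the intron lay between coding exons, in 18 before the coding region and in 9 after it. The reading frame was cut between codons (phase 0) in 65 of the 180 (36.1%), after the first codon base in 63 (35.0%) and after the second in 52 (28.9%). Intron length was a multiple of 3 in 66 of these 180 (36.7%). In GQ67_02309, GQ67_02895 and GQ67_05045 the annotated first exon was only 3 bases long, all of them coding. In these gene models, which hold no untranslated bases there, the start codon alone preceded the intron. Where a model leaves out untranslated bases, its first exon is shorter than that of the mRNA.

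The genes were spread over the whole genome. Chromosomes 1 to 4 of the Y-11430 assembly held 67, 51, 46 and 45 of them, and 110 were on the minus strand. Within 25000 bases of a chromosome end lay 2 of them (0.957%), against 64 single-exon genes (1.31%). The annotated span of 104 two-exon genes (49.8%) overlapped another gene, against 1729 single-exon genes (35.5%). Whether counting used the strand is not given in the sources used here, so reads of overlapping neighbours may not be told apart.

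The median RNA level of two-exon genes was above that of single-exon genes in every library. Averaged over the groups, the median two-exon gene had 52.4 TPM and the median single-exon gene 37.2 TPM. By condition, the medians were 63.0 against 39.9 TPM at 24 h glycerol, 52.4 against 38.3 TPM at 48 h glycerol and 45.7 against 33.3 TPM in methanol. The difference between both medians on the log2(TPM + 1) scale was 0.69 at 24 h, with strain means from 0.60 in Y-11430 to 0.88 in Y-17741. It was 0.48 at 48 h (0.33 in X-33 to 0.68 in Y-17741) and 0.53 in methanol (0.29 in YB-378 to 0.62 in Y-48124). The median standard deviation (SD) between libraries of a strain was 0.0528, 0.0502 and 0.100 in these conditions. The strain mean was higher at 24 h than at 48 h glycerol in 11 of 11 strains, and higher at 48 h glycerol than in methanol in 6 of 11. Genes with 3 or more exons had still higher medians of 92.9, 105 and 91.5 TPM.

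**Figure D2:**
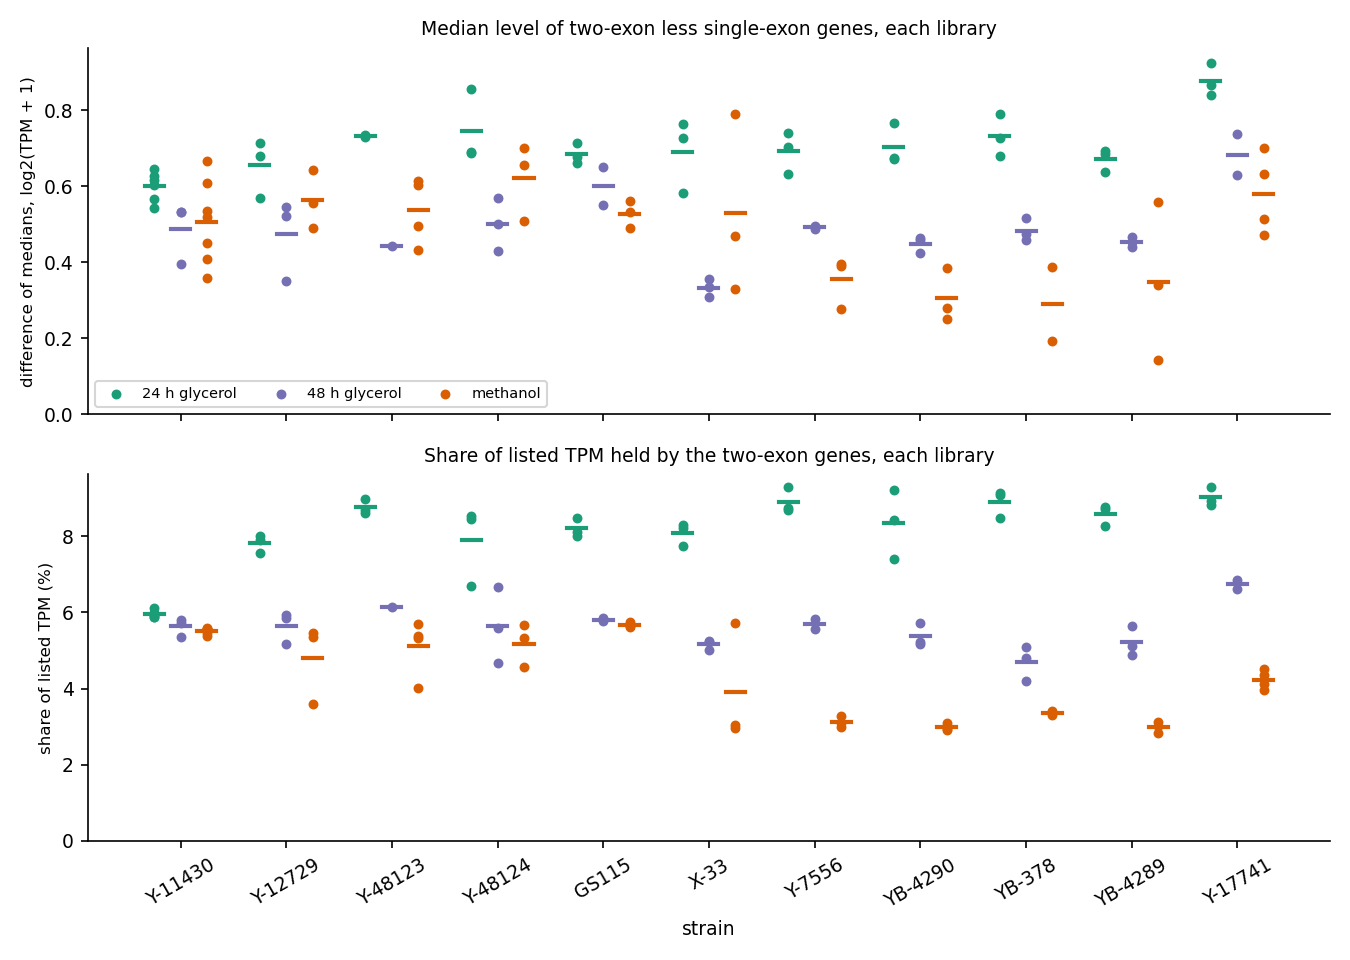
Each point is a library, by strain (horizontal axis) and condition (colour). The upper panel gives the median log2(TPM + 1) of two-exon genes less that of single-exon genes, the lower panel the percent of listed TPM in two-exon genes. Every library lies above 0 in the upper panel, and in each of the 11 strains the 24 h glycerol libraries lie highest in the lower panel.

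The higher level held within classes of gene length. Two-exon genes of up to 600 exon bases had medians of 99.7, 165 and 69.3 TPM in the order of conditions above, against 51.1, 43.0 and 37.1 TPM for single-exon genes of that length. Those over 2000 bases had medians of 51.1, 42.6 and 36.9 TPM, against 35.0, 34.3 and 29.0 TPM. The two-exon median was the higher one in all 4 length classes and 3 conditions. Levels were not compared by overlap with another gene, which was more frequent among two-exon genes.

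Genes with introns over 100 bases had higher levels. Genes with introns of up to 100 bases had medians of 55.7, 44.6 and 36.9 TPM in the same order. With introns of over 100 and up to 300 bases the medians were 217, 105 and 88.8 TPM, and with longer introns 206, 264 and 138 TPM. Across the 207 genes, Spearman's rho between intron length and mean level was 0.39, against 0.018 for the length of the first exon. These are descriptions across genes, which are not independent replicates.

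The highest levels belonged to few genes. Of the 209 two-exon genes, 42 (20.1%) were in the top 10% of all listed genes by level. The top 25% held 78 of the 209 (37.3%), and the bottom 25% held 29 (13.9%). Averaged over the groups, 7 two-exon genes were above 1000 TPM and 8 below 10 TPM, and 192 had a value above 0 in every library. The 10 highest members of a library made up, at 24 h glycerol, a median of 43.6% of the TPM of all two-exon genes. That share was 35.0% at 48 h glycerol and 28.8% in methanol.

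GQ67_01178 (chromosome 2, 2079657 to 2081813, plus strand) was the highest two-exon gene on average and had a 454-base intron. Its level ran from 1713 to 5947 TPM at 24 h glycerol (median 4034), from 3065 to 9196 TPM at 48 h glycerol (median 6112) and from 179.7 to 2182 TPM in methanol (median 800.9). The methanol libraries overlapped with the lowest 24 h libraries but not with any 48 h library. GQ67_02208 had medians of 3936, 1003 and 1027 TPM, GQ67_00531 had 3311, 834.8 and 845.1 TPM, and GQ67_01001 had 3124, 760.0 and 720.2 TPM. These 3 genes were alike in having their highest median at 24 h glycerol and lower, close medians in the other conditions. GQ67_00153 (2884, 1399 and 1137 TPM) and GQ67_02145 (2699, 1096 and 712.1 TPM) had the same order of medians from 24 h glycerol to methanol.

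The most even gene among those with at least 10 TPM was GQ67_00624, with an SD of 0.23 on the log2 scale over the 33 group means and medians of 100.7, 105.9 and 114.2 TPM in the 3 conditions. GQ67_00707 had an SD of 0.26 and medians of 108.1, 124.0 and 154.5 TPM. GQ67_00696, with a 330-base intron after its coding region, had an SD of 0.27 and medians of 355.4, 312.4 and 298.9 TPM. The least even genes were GQ67_04305 (SD 2.56), GQ67_00067 (SD 2.04) and GQ67_01660 (SD 2.00), which are described below.

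Two-exon genes took 8.35% of listed TPM at 24 h glycerol (median over strain means, from 5.97% in Y-11430 to 9.02% in Y-17741). They took 5.65% at 48 h glycerol (4.70% in YB-378 to 6.73% in Y-17741) and 4.24% in methanol (2.98% in YB-4290 to 5.67% in GS115). In each of the 11 strains every 24 h library was above every 48 h library. The mean at 48 h was above that in methanol in 11 strains, and the libraries did not overlap in 7 of them. Y-11430 changed least, with 5.97% ± 0.0821 (SD, n = 6) at 24 h and strain means of 5.63% at 48 h and 5.52% in methanol. Its 24 h libraries also lay apart from other strains over single-exon genes. On a scale from the 24 h (0) to the 48 h (1) reference strain means, they sat at 0.459 to 0.695, against −0.265 to 0.302 in the 24 h libraries of the other strains.

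The first comparison asked how two-exon genes differed between 48 h and 24 h of growth on glycerol. Of the 209, 39 fell and 17 rose. A gene was called where edgeR's quasi-likelihood test gave an adjusted p under 0.05 (Benjamini-Hochberg over all 5087 genes tested) and the change, averaged over 10 strains, was at least 2-fold. Y-48123 was left out of the average because it has 1 library at 48 h. The 56 calls are 26.8% of the two-exon genes, near the 27.8% of all genes tested. The direction differed, since 18.7% of the two-exon genes fell and 8.13% rose, against 13.9% and 14% of all genes. The median change was −0.28 on the log2 scale for two-exon genes and 0.00 for single-exon genes. In each of the 10 strains the median response of the two-exon genes was below that of the single-exon genes, with differences of −0.42 to −0.08. Of the 39 that fell, 38 had a lower mean at 48 h in all 10 strains, and of the 17 that rose 12 had a higher one in all 10. The calls were made on the average over these same strains, so this agreement in direction follows in part from the selection.

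**Figure D3:**
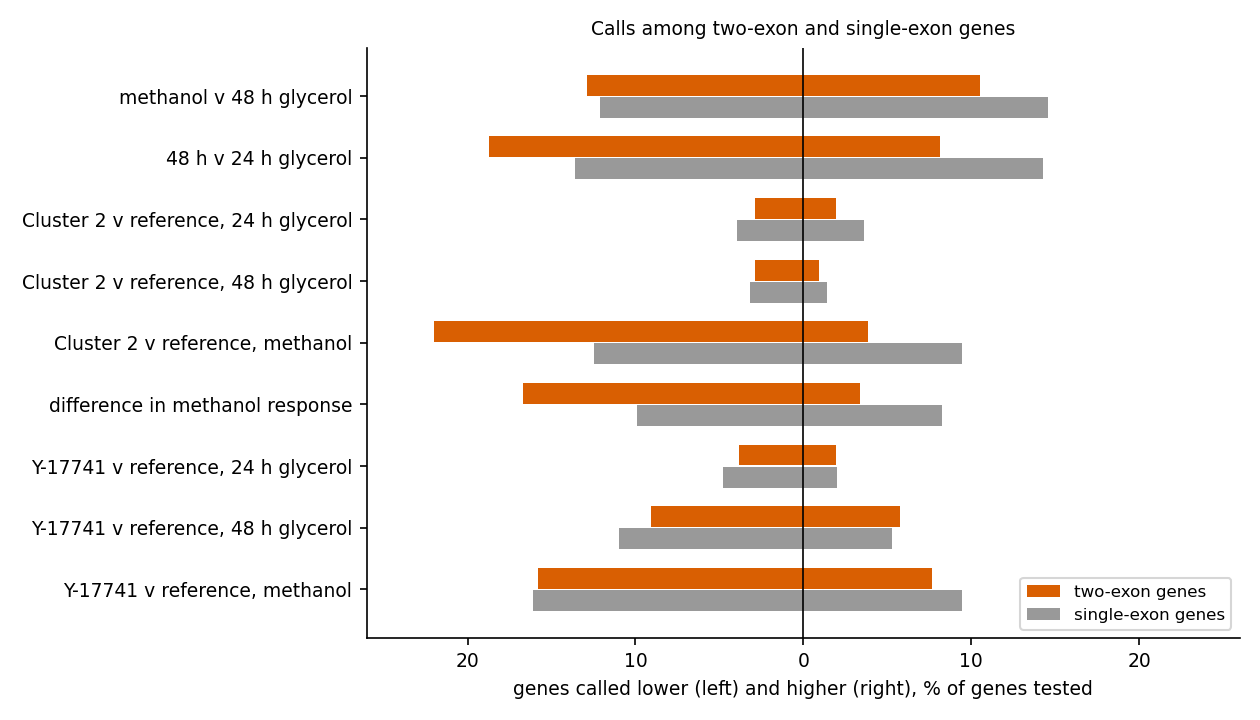
Percent of two-exon and of single-exon genes tested that were called lower (left of 0) and higher (right of 0) in each of the 9 comparisons. Two-exon genes were called lower more often and higher less often than single-exon genes at 48 h against 24 h glycerol (18.7% against 13.6% lower) and in Cluster 2 in methanol (22.0% against 12.5% lower).

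The falls at 48 h lay at both ends of the range of levels. Of the 78 two-exon genes in the top 25% of all genes by level, 22 (28.2%) fell and 6 (7.69%) rose. Single-exon genes of the same level band moved the other way, with 12.5% lower and 22.3% higher. In the bottom 25%, 9 of 29 two-exon genes (31%) fell and 0 rose, against 22.1% and 11.9% of single-exon genes. By intron length, 10 of 29 genes with introns of over 100 and up to 300 bases (34.5%) fell, against 28 of 167 with shorter introns (16.8%) and 0 of 11 with longer ones. In the same order, 4 (13.8%), 11 (6.59%) and 2 (18.2%) rose. Most falls among introns over 100 bases lay in the top 25% by level, where 9 of 26 fell and 1 rose, while below it 1 of 14 fell (7.14%) and 5 rose (35.7%). These are descriptions with no test between the classes, whose genes also differ in level.

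GQ67_00067 (chromosome 2, 74901 to 75867, minus strand) fell most. It had 307.9 to 2655 TPM at 24 h glycerol (median 735.7) and 10.99 to 352.6 TPM at 48 h (median 35.8). The highest 48 h value belonged to Y-48124 D, one of the libraries that stood apart, and the next highest, 223.2 TPM, to GS115 C. The log2 change was −3.91 (SE 0.17, adjusted p = 1.30e-33 by edgeR), and it was −4.09 without the 5 libraries that stood apart. Its intron was also unusual in lying near the end of the coding region, with 851 exon bases before it and 55 after. GQ67_04403 fell from a median of 956.9 TPM (137.1 to 1311) to 99.9 TPM (32.1 to 482.5), with a log2 change of −2.85 (SE 0.15, adjusted p = 4.52e-30 by edgeR).

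The other 4 of the largest falls were in genes of high level at 24 h. GQ67_02799, with 3 coding bases before its intron, fell from a median of 2065 TPM (331.7 to 2918) to 261.5 TPM (63.2 to 863.6). GQ67_05045, whose annotated first exon is the start codon, fell from 3093 TPM (509.8 to 4333) to 423.6 TPM (213.7 to 1712). GQ67_01660, with 1 coding base before its intron, fell from 1484 TPM (318.8 to 2127) to 180.1 TPM (108.7 to 714.2). In each of these the lowest 24 h library was Y-11430 B and the highest 48 h library Y-48124 D. GQ67_00640, whose intron follows the coding region, fell from 1012 TPM (201.1 to 1384) to 143.2 TPM (88.2 to 474.0). The log2 changes of these 4 genes were −2.67 (SE 0.16), −2.48 (SE 0.14), −2.66 (SE 0.12) and −2.41 (SE 0.11), with adjusted p of at most 2.90e-26 by edgeR. In all 4, and in GQ67_04403, the 24 h libraries below the highest 48 h library were the 6 libraries of Y-11430 and no others.

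GQ67_04305 rose most at 48 h and varied most of all two-exon genes. It lies 6884 bases from the end of chromosome 4 (6884 to 12818, minus strand), with a 675-base intron between coding exons of 3495 and 1765 bases. Its level was 0.39 to 144.5 TPM at 24 h glycerol (median 9.93) and 0.29 to 423.5 TPM at 48 h (median 165.1). The ranges overlapped, since the 48 h strain means ran from 2.25 TPM in YB-378 to 373.5 TPM in X-33. The log2 change was 3.72 (SE 0.19, adjusted p = 4.18e-30 by edgeR). GQ67_03026 (chromosome 3, 35889 to 40734, minus strand), the gene with the longest intron, rose from a median of 78.4 TPM (7.88 to 257.5) to 234.6 TPM (133.1 to 1069). Its log2 change was 2.16 (SE 0.14, adjusted p = 1.36e-23 by edgeR). Whether reads of these genes are shared with similar copies elsewhere in the genome was not tested.

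Another 4 genes followed among those that rose. GQ67_04598 went from a median of 43.2 TPM (23.4 to 140.4) to 207.1 TPM (48.6 to 463.2), a log2 change of 2.05 (SE 0.12). GQ67_04159, which starts with an 18-base coding exon, went from 449.0 TPM (202.6 to 1051) to 1461 TPM (900.1 to 2412), a log2 change of 1.81 (SE 0.14). GQ67_05085 went from 19.0 TPM (10.02 to 60.7) to 62.6 TPM (16.1 to 95.6), and GQ67_04942 from 19.6 TPM (9.34 to 59.7) to 61.1 TPM (24.2 to 91.6). The ranges of both conditions overlapped in all 4 genes. The last 2 had log2 changes of 1.61 (SE 0.11) and 1.60 (SE 0.13), and all 4 had adjusted p of at most 2.17e-18 by edgeR.

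The second comparison asked how two-exon genes differed between methanol and 48 h glycerol, again over 10 strains. Here 27 fell and 22 rose, together 23.4% of the 209 against 26.6% of all genes tested. The falls made up 12.9% of the two-exon genes, near the background of 12.2%, and the rises 10.5% against 14.4%. The median log2 change was −0.13 for two-exon and 0.04 for single-exon genes, and the two-exon median was the lower one in each of the 10 strains, with differences of −0.29 to −0.02. Among the 27 that fell, 23 fell in the means of all 10 strains, and among the 22 that rose 15 rose in all 10. Here too the agreement follows in part from calling genes on the average over these strains. The 48 h libraries serve both this and the preceding comparison, so the 2 sets of changes are not independent. Of the 11 genes with introns over 300 bases, 5 (45.5%) fell in methanol. No test was made of this class, whose 48 h glycerol median (264 TPM) was the highest of the intron length classes. In the top level band, 7 of 26 genes with introns over 100 bases (26.9%) fell and 2 (7.69%) rose. There, 13.7% of two-exon genes with shorter introns and 18.2% of single-exon genes fell, and 5.88% and 14.3% rose. Below that band, 2 of 14 with introns over 100 bases (14.3%) fell and 4 (28.6%) rose.

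The 6 largest falls included 4 of the genes with long introns. GQ67_04305 dropped to 0.98 to 356.1 TPM in methanol (median 9.82), a log2 change of −3.26 (SE 0.19, adjusted p = 3.90e-26 by edgeR) against 48 h glycerol. All other strains had methanol means from 1.28 to 17.4 TPM, while the GS115 libraries held 85.1, 319.5 and 356.1 TPM. GQ67_03026 dropped to 1.02 to 109.6 TPM (median 31.2), below every 48 h library, with a log2 change of −2.93 (SE 0.15, adjusted p = 1.61e-29 by edgeR). GQ67_01178 also lay below every 48 h library, with a log2 change of −2.83 (SE 0.13, adjusted p = 2.44e-32 by edgeR). GQ67_01197, with a 524-base intron, went from a median of 1563 TPM (697.3 to 3137) to 389.5 TPM (85.8 to 1035), a log2 change of −2.02 (SE 0.13). The other 2 had 61-base introns. GQ67_01690 went from 1784 TPM (1287 to 2504) to 359.4 TPM (131.8 to 775.1) with no overlap between libraries, a log2 change of −2.16 (SE 0.068). GQ67_01810 went from 109.8 TPM (75.2 to 207.3) to 27.9 TPM (7.08 to 94.5), a log2 change of −1.99 (SE 0.11).

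GQ67_04719 (chromosome 4, 788032 to 789514, plus strand) rose most in methanol. Its 24-base first exon and 157-base intron precede the coding region. It had 22.9 to 128.3 TPM at 48 h glycerol (median 40.0) and 42.9 to 806.2 TPM in methanol (median 138.5), a log2 change of 2.54 (SE 0.13, adjusted p = 7.68e-31 by edgeR). The highest methanol values were in Cluster 2 strains. Its median at 24 h glycerol was 252.6 TPM (56.7 to 383.2), and it was also among the genes that fell at 48 h. GQ67_05085, with an intron before the coding region, went from 62.6 TPM to 182.3 TPM (90.8 to 521.6), a log2 change of 2.35 (SE 0.11). Its medians went up in the order 24 h glycerol, 48 h glycerol and methanol.

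GQ67_00404 and GQ67_01184 rose unevenly over strains. GQ67_00404 went from a median of 166.7 TPM (71.6 to 297.6) to 313.3 TPM (125.6 to 1573), a log2 change of 2.00 (SE 0.17), and its Cluster 2 libraries in methanol were at 762.5 to 1573 TPM. GQ67_01184 went from 26.4 TPM (13.9 to 37.6) to 53.2 TPM (26.2 to 212.0), a log2 change of 2.00 (SE 0.10). GQ67_05353 went from 27.4 TPM (13.1 to 38.7) to 88.9 TPM (24.2 to 146.3), a log2 change of 1.93 (SE 0.060). GQ67_04702 went from 4.66 TPM (1.52 to 22.3) to 19.6 TPM (2.34 to 199.7), a log2 change of 2.11 (SE 0.21). The adjusted p of these 4 genes was at most 5.18e-15 by edgeR.

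**Figure D4:**
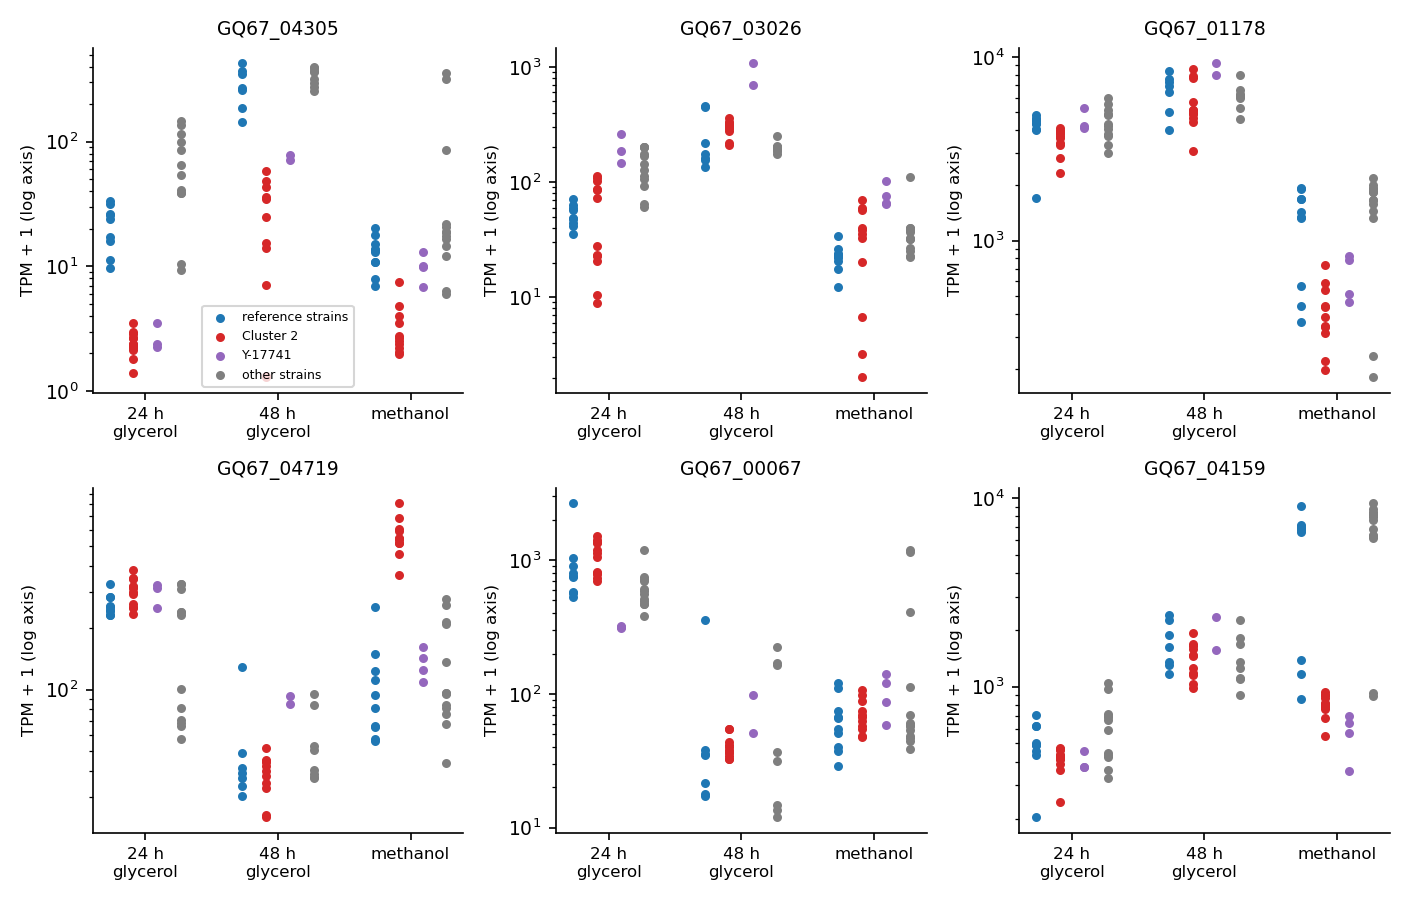
TPM + 1 (log axis) of GQ67_04305, GQ67_03026, GQ67_01178, GQ67_04719, GQ67_00067 and GQ67_04159 in every library, by condition (horizontal axis) and strain group (colour). GQ67_04305 rose from 24 h to 48 h glycerol and was low again in methanol except in GS115, and GQ67_04719 and GQ67_04159 separated Cluster 2 from most reference strain libraries in methanol, in opposite directions.

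The third comparison set Cluster 2 against the reference strains within each condition. At 24 h glycerol, 6 of 208 two-exon genes tested were lower in Cluster 2 and 4 higher. The 10 calls are 4.81% of them, against 7.43% of all genes (2.88% against 3.91% lower and 1.92% against 3.53% higher). At 48 h glycerol, 6 of 209 were lower and 2 higher, or 3.83% against 4.56% of all genes (2.87% against 3.15% lower and 0.957% against 1.41% higher). In methanol, 46 were lower and 8 higher, or 25.8% against 22.2% of all genes. The 46 make up 22.0% of the two-exon genes, against 13% of all genes lower, and the 8 make up 3.83%, against 9.18% higher. The median log2 difference in methanol was −0.21 for two-exon genes and −0.02 for single-exon genes. The 8 calls at 48 h were 4 without Y-48124 48 h glycerol D, so that count rests in part on this library. It is the only 48 h library among those that stood apart. Without it, 2 were lower and 2 higher, together 1.91% against 4.1% of all genes. These are 0.957% against 2.52% lower and 0.957% against 1.59% higher. Without the libraries that stood apart, 52 were lower and 13 higher in methanol, or 24.9% against 17.2% of all genes lower and 6.22% against 13.1% higher. The reference methanol libraries left out, Y-12729 B, Y-48123 C and Y-48124 C, lay closer to Cluster 2 over single-exon genes than the other reference libraries. Leaving them out moves the reference mean away from Cluster 2, so the larger counts are no independent check.

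The 46 genes that were lower in Cluster 2 in methanol were largely abundant genes. In the top 25% of all genes by level, 30 of 78 two-exon genes (38.5%) were lower, against 19.8% of single-exon genes. Within this level band, 15 of 26 with introns over 100 bases (57.7%) and 14 of 51 with shorter ones (27.5%) were lower, with median log2 differences of −1.03 and −0.40, against −0.22 for single-exon genes. By first exon, 12 of 27 genes with at most 30 bases (44.4%) were lower, against 22.0% of all two-exon genes and 13% of all genes tested. No test was made of this class, whose level may also differ. Of the genes that fell from 24 h to 48 h glycerol, 21 were also lower in Cluster 2 in methanol, which is 53.8% of the 39 and 45.7% of the 46. For single-exon genes this overlap was 225 genes, 34.1% of the 660 and 37.4% of the 602. The classes differ in their base rates. Among two-exon genes 22.0% were lower in Cluster 2 in methanol and 18.7% fell at 48 h, against 12.5% and 13.6% of single-exon genes. The larger overlap shares of two-exon genes are therefore not by themselves a closer link. These 2 comparisons share no library, and no test was made of the overlap.

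GQ67_04305 was the only two-exon gene lower in Cluster 2 in all 3 conditions. At 24 h glycerol, the reference strains had 8.69 to 32.5 TPM (median 22.9) and Cluster 2 had 0.39 to 2.54 TPM (median 1.40). At 48 h the values were 143.7 to 423.5 TPM (median 266.2) and 0.29 to 57.1 TPM (median 23.8), and in methanol 5.90 to 19.2 TPM (median 12.3) and 0.98 to 6.51 TPM (median 1.64). The ranges did not overlap at 24 h or 48 h glycerol and overlapped slightly in methanol. The log2 differences were −3.89 (SE 0.28), −4.45 (SE 0.44) and −2.71 (SE 0.24), with adjusted p of 6.49e-12, 4.59e-07 and 1.61e-10 by edgeR. Y-11430 held more than the reference strains at 24 h, with 64.0 to 144.5 TPM. The gene lies near a chromosome end, and whether sequence differences there lowered alignment in YB-4289 and YB-378 was not tested. The study describes the other Cluster 2 strains, Y-7556 and YB-4290, as nearly identical in genome to Y-11430.

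At 24 h glycerol, GQ67_04324 (chromosome 4, 65594 to 71153, minus strand), which has the longest first exon at 4333 bases, had 27.8 to 70.9 TPM in the reference strains and 4.38 to 28.1 TPM in Cluster 2, a log2 difference of −2.07 (SE 0.23). GQ67_02790, with a 45-base intron, had 31.03 to 84.3 TPM and 3.70 to 37.3 TPM, a log2 difference of −1.97 (SE 0.24). Each pair of ranges overlapped only at its edge. On the other side, GQ67_04777 had 16.5 to 32.1 TPM in the reference strains and 31.2 to 118.9 TPM in Cluster 2 (log2 1.77, SE 0.19). GQ67_00837 had 125.2 to 464.0 TPM and 403.2 to 1360 TPM (1.75, SE 0.20), and GQ67_04517 had 101.2 to 212.0 TPM and 206.3 to 454.4 TPM (1.35, SE 0.15). GQ67_04777 and GQ67_04517 have introns of 392 and 442 bases. The adjusted p of these 5 genes was at most 6.72e-08 by edgeR.

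At 48 h glycerol the named differences were small apart from GQ67_04305. GQ67_03930 had 22.9 to 53.7 TPM in the reference strains and 36.6 to 133.9 TPM in Cluster 2 (log2 1.12, SE 0.16, adjusted p = 1.21e-05 by edgeR). GQ67_04773 had 3.39 to 10.03 TPM and 9.07 to 29.6 TPM, a log2 difference of 1.09 (SE 0.22) that was 0.99 (adjusted p = 0.000997 by edgeR) without Y-48124 B. GQ67_02799 had 133.1 to 863.6 TPM and 63.2 to 321.1 TPM, a log2 difference of −1.12 (SE 0.25) that was −0.87 (adjusted p = 0.00282 by edgeR) without Y-48124 D. GQ67_01923 had 1.25 to 4.51 TPM and 0.38 to 2.42 TPM, a log2 difference of −1.16 (SE 0.34). It was −0.89 (adjusted p = 0.0663) without Y-12729 B and −0.99 (adjusted p = 0.0316) without Y-7556 A. Each of these values is under the 2-fold bound, and of the 4 only that without Y-12729 B also missed the adjusted p threshold.

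In methanol, GQ67_04159 was an abundant gene that was lower in Cluster 2. The reference strains had 857.1 to 9069 TPM (median 6906) and Cluster 2 had 547.6 to 932.4 TPM (median 809.8). The reference libraries with 857.1, 1173 and 1391 TPM were Y-12729 B, Y-48123 C and Y-48124 C, which stood apart, and the other 7 had at least 6627 TPM. The log2 difference was −2.85 (SE 0.35, adjusted p = 4.00e-08 by edgeR), and −3.30 without the libraries that stood apart. GQ67_04324 had 18.4 to 464.9 TPM (median 307.3) in the reference strains and 18.4 to 56.0 TPM (median 40.4) in Cluster 2, a log2 difference of −2.85 (SE 0.51, adjusted p = 1.86e-05 by edgeR) that was −3.35 without those libraries.

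Fewer two-exon genes were higher in Cluster 2 in methanol. GQ67_04719 had 55.1 to 250.1 TPM (median 86.7) in the reference strains and 359.1 to 806.2 TPM (median 542.8) in Cluster 2, with no overlap, a log2 difference of 2.20 (SE 0.26, adjusted p = 3.64e-08 by edgeR). GQ67_01184 had 28.01 to 128.1 TPM (median 50.5) and 98.4 to 212.0 TPM (median 177.7), a log2 difference of 1.46 (SE 0.24, adjusted p = 4.70e-06 by edgeR). GQ67_01923 was near the floor of detection, at 0 to 2.15 TPM (median 0.575) and 0 to 10.3 TPM (median 2.83), a log2 difference of 2.33 (SE 0.35, adjusted p = 1.29e-06 by edgeR).

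The share of TPM in two-exon genes followed the profile of single-exon genes across methanol libraries. Each library was placed on a scale from the mean of the reference strains (0) to that of Cluster 2 (1) over 4697 single-exon genes with at least 5 TPM on average, leaving its own strain, and a strain of identical genome, out of those means. The 18 libraries under 0.2, from 6 strains, had shares of 5.32% to 5.74%. The 7 libraries between 0.2 and 0.6 had 3.59% to 4.56%, and the 13 at 0.6 or more had 2.83% to 3.42%. The bounds of 0.2 and 0.6 were chosen after the values were seen. The relation is a description.

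**Figure D5:**
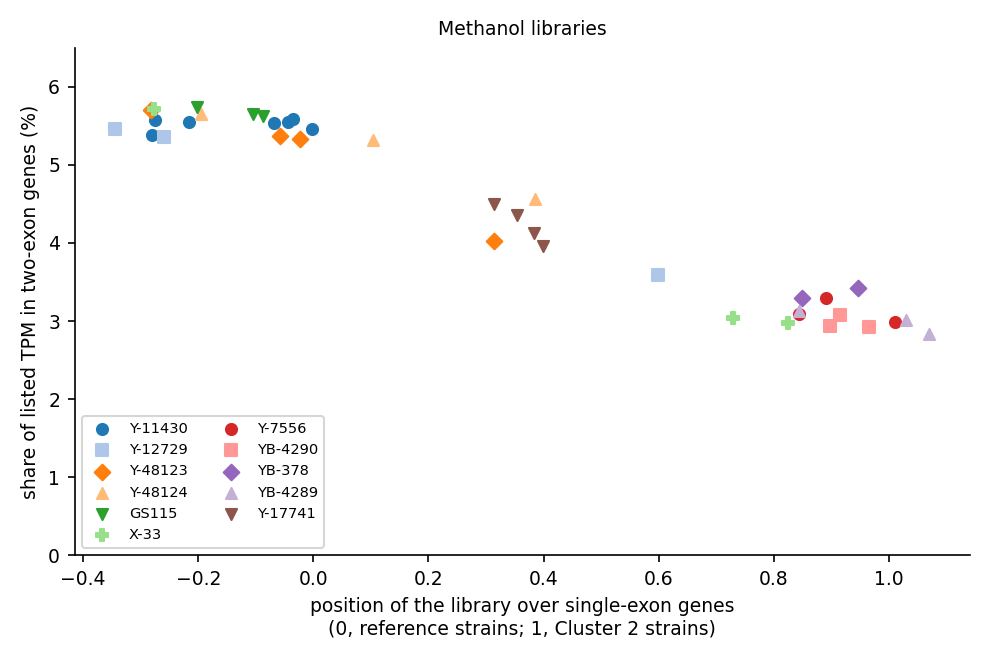
Each point is a methanol library. The horizontal axis gives its position over single-exon genes between the reference strain mean (0) and the Cluster 2 mean (1), the vertical axis the percent of listed TPM in two-exon genes. Libraries under 0.2 lie between 5.32% and 5.74%, and those at 0.6 or more between 2.83% and 3.42%.

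Libraries of a strain split along this scale. X-33 methanol A and B sat at 0.73 and 0.825 with shares of 3.04% and 2.97%, while C sat at −0.276 with 5.71%, and C has only 70901 counts. Y-12729 B sat at 0.599 with 3.59%, and its other 2 libraries below 0 with 5.35% and 5.46%. Y-48123 C (0.314, 4.02%) and Y-48124 C (0.386, 4.56%) lay between the 2 ends, while the other libraries of these strains had 5.32% to 5.70%. What set these libraries apart was not tested.

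The fourth comparison tested the difference in the methanol response itself, Cluster 2 less the reference strains Y-12729 and Y-48124, which both have replicates at 48 h. Of 209 two-exon genes, 35 responded lower in Cluster 2 and 7 higher, together 20.1% against 18.3% of all genes tested. The lower ones are 16.7% against a background of 10.3%, and the higher ones 3.35% against 8.02%. The median difference was −0.27 on the log2 scale for two-exon and −0.08 for single-exon genes. Without the 5 libraries that stood apart, 53 were lower and 16 higher, or 25.4% against 16.3% of all genes lower and 7.66% against 13.4% higher. This setting takes out Y-12729 B and Y-48124 C in methanol, which lay toward Cluster 2, so the larger count is no independent check.

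GQ67_00214 had the largest lower response. In the reference strains it had 14.1 to 186.8 TPM at 48 h glycerol and 28.8 to 266.5 TPM in methanol, and in Cluster 2 it had 108.6 to 344.3 TPM and 27.7 to 86.4 TPM. Its mean response was above 0 in Y-12729 and Y-48124 (1.11 and 1.17 on the log2(TPM + 1) scale) and below 0 in the 4 Cluster 2 strains (−0.96 to −2.28). The difference was −3.00 (SE 0.42, adjusted p = 3.16e-08 by edgeR). GQ67_04324 responded with 2.22 and 2.61 in the reference strains and −1.20 to 0.96 in Cluster 2, a difference of −2.78 (SE 0.58, adjusted p = 8.21e-05 by edgeR). GQ67_04159 responded with 1.17 and 1.72, and with −0.18 to −0.80 in Cluster 2, a difference of −2.38 (SE 0.39, adjusted p = 9.40e-07 by edgeR).

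Of the genes with a higher response in Cluster 2, GQ67_04719 rose in every strain, by 0.97 to 1.60 in the reference strains and by 4.01 to 4.26 in Cluster 2, a difference of 2.79 (SE 0.32, adjusted p = 9.06e-11 by edgeR). GQ67_01923 changed by −1.05 and −0.68 in the reference strains and by 0.53 to 1.76 in Cluster 2, a difference of 2.98 (SE 0.51, adjusted p = 2.38e-06 by edgeR). GQ67_02949 had the lowest level of the two-exon genes, at most 4.23 TPM in any library. Its difference of 2.47 (SE 1.00, adjusted p = 0.0410 by edgeR) was lost with DESeq2 (adjusted p = 0.0512) and on leaving out any of 15 single libraries, where it fell to as little as 1.64 (adjusted p = 0.398) without Y-12729 48 h glycerol A.

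The last comparison set Y-17741 against the reference strains. Reads of this most divergent strain were also aligned to the Y-11430 assembly. Whether sequence differences lowered alignment in Y-17741 was not tested, for any gene named below. At 24 h glycerol, 8 of 208 two-exon genes were lower and 4 higher, or 5.77% against 6.74% of all genes (3.85% against 4.74% lower and 1.92% against 1.99% higher). At 48 h glycerol, where Y-17741 has 2 libraries, 19 were lower and 12 higher, or 14.8% against 16.2% (9.09% against 10.9% lower and 5.74% against 5.27% higher). In methanol, 33 were lower and 16 higher, or 23.4% against 25.5% (15.8% against 16.2% lower and 7.66% against 9.34% higher). In each condition these counts were near the background. Without the libraries that stood apart, 32 were lower and 26 higher in methanol, or 15.3% against 16.7% of all genes lower and 12.4% against 13.9% higher. The medians of the log2 difference were 0.10, 0.12 and −0.05 for two-exon genes and 0.00, 0.02 and −0.02 for single-exon genes.

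GQ67_03026 and GQ67_03045 were higher in Y-17741 in all 3 conditions, and GQ67_00248 was lower in all 3. GQ67_03026 had 144.8 to 257.5 TPM against 34.7 to 70.5 TPM at 24 h glycerol, and 693 to 1069 TPM against 133.1 to 454.4 TPM at 48 h, with no overlap. Its log2 differences there were 2.20 (SE 0.23, adjusted p = 2.03e-08) and 1.57 (SE 0.38, adjusted p = 0.00299), both by edgeR. GQ67_03045, which has a 47-base intron, differed most in methanol, with 4.84 to 13.5 TPM against 0.24 to 2.62 TPM and a log2 difference of 2.83 (SE 0.38, adjusted p = 3.55e-07 by edgeR). At 48 h it had 2.63 and 10.96 TPM against 0 to 9.11 TPM, and its log2 difference of 2.08 (SE 0.57) became −0.11 (adjusted p = 0.977 by edgeR) without Y-17741 B, so the 48 h call rests on that library. GQ67_00248 had 306.8 to 379.2 TPM against 637.1 to 1080 TPM at 24 h, 102.2 and 138.1 TPM against 135.5 to 407.6 TPM at 48 h, and 27.0 to 46.2 TPM against 127.5 to 426.0 TPM in methanol. It was named because it was lower in all 3 conditions, after its values were seen.

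At 24 h glycerol, GQ67_02643 had 193.7 to 223.9 TPM in Y-17741 and 27.9 to 62.5 TPM in the reference strains (log2 2.36, SE 0.18, adjusted p = 3.64e-11 by edgeR). GQ67_00045 had 79.8 to 99.2 TPM and 39.4 to 64.1 TPM (1.08, SE 0.11, adjusted p = 8.48e-09 by edgeR). On the other side, GQ67_04305 had 1.25 to 2.52 TPM and 8.69 to 32.5 TPM (−3.34, SE 0.48), GQ67_04702 had 3.14 to 5.74 TPM and 10.03 to 60.97 TPM (−2.26, SE 0.58), and GQ67_04324 had 8.21 to 15.7 TPM and 27.8 to 70.9 TPM (−1.90, SE 0.39). None of these pairs of ranges overlapped, and the adjusted p of the last 3 was at most 0.00298 by edgeR.

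At 48 h glycerol, GQ67_00837 had 83.1 and 112.3 TPM in Y-17741 and 137.3 to 1215 TPM in the reference strains, a log2 difference of −3.23 (SE 0.62, adjusted p = 0.000395 by edgeR). GQ67_04305, GQ67_03697 and GQ67_01923 kept their direction but missed the adjusted p threshold on leaving out 1 of the 2 Y-17741 libraries, which leaves a single library in that arm. GQ67_04305 had 70.2 and 77.7 TPM against 143.7 to 423.5 TPM, a log2 difference of −2.26 (SE 0.77, adjusted p = 0.0280) that was −2.55 (adjusted p = 0.122) without Y-17741 B and −2.02 (adjusted p = 0.176) without D, all by edgeR. GQ67_03697 had 14.2 and 38.7 TPM against 3.23 to 19.1 TPM, a log2 difference of 1.47 (SE 0.52, adjusted p = 0.0302) that was 1.90 (adjusted p = 0.0703) without B and 1.13 (adjusted p = 0.2) without D. GQ67_01923 had 0.24 and 1.12 TPM against 1.25 to 4.51 TPM, a log2 difference of −2.57 (SE 0.88, adjusted p = 0.0270) that was −1.65 (adjusted p = 0.436) without B and −2.62 (adjusted p = 0.0561) with DESeq2. GQ67_00837 and GQ67_03026 lost their call under no alternative run.

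In methanol, GQ67_04702 had 2.34 to 3.94 TPM in Y-17741 and 10.4 to 72.5 TPM in the reference strains, a log2 difference of −3.78 (SE 0.51, adjusted p = 3.41e-07 by edgeR). GQ67_04324 had 7.34 to 21.3 TPM and 18.4 to 464.9 TPM (−3.75, SE 0.80, adjusted p = 0.000240 by edgeR), where the ranges met only through the reference libraries that stood apart and the difference was −4.16 without them. GQ67_03930, which has a first exon of 3024 bases, had 0.96 to 2.37 TPM and 2.68 to 35.5 TPM (−3.29, SE 0.42, adjusted p = 1.69e-07 by edgeR). GQ67_02585 had 74.6 to 184.4 TPM and 17.3 to 44.3 TPM (2.10, SE 0.16, adjusted p = 4.76e-12 by edgeR), and GQ67_02644 had 10.5 to 37.5 TPM and 1.65 to 15.0 TPM (2.00, SE 0.24, adjusted p = 6.02e-08 by edgeR).

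Over all 9 comparisons, 138 of the 209 two-exon genes (66.0%) were called at least once, against 65.9% of single-exon genes. A call in Cluster 2 against the reference strains was made for 64 of them (30.6%) in at least 1 condition, against 27.5% of single-exon genes, and in Y-17741 for 71 (34%), against 36.7%. The comparisons within a condition share the libraries of the reference strains.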

How the data were processed

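Reads of 40 nucleotides from KAPA HyperPrep libraries were, per the labels and the study's methods, aligned with STAR 2.5.3a and quantified with RSEM 1.3.0 on the Y-11430 assembly, whose build name is not given in the sources used here. The authors deposited estimated counts per gene, whole numbers in 100% of cells, and log2(TPM + 1) values, where TPM had been scaled over all features, including 51 that are not in the tables. The start and end positions are those of the deposited gene models, 1-based. Exons were counted per gene from these models.

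The two-exon genes, the lists and the tests were chosen with earlier results of these data known. Levels and shares used TPM, with a pseudocount of 1 TPM on the log2 scale, and have no test. Calls used the estimated counts in edgeR 4.0.16 (R 4.3.3; TMM, expression filter over groups, robust quasi-likelihood F test, two-sided). The methanol, time and response comparisons used 1 model of all libraries, with 1 mean for each strain in each condition and equal weight for each strain. Strain comparisons used the libraries of their condition. Genes called had a Benjamini-Hochberg adjusted p under 0.05 over all genes tested and a change of at least 2-fold. Fits that left out 1 library kept the dispersion trend of the complete model. Genes tested numbered 5087 in the complete model and 5018 (24 h glycerol), 5046 (48 h glycerol) and 5045 (methanol) in the others, and 209, 208, 209 and 209 of the two-exon genes passed these filters.

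Genes were named by rule: up to 6 called genes in each direction for the condition comparisons and 3 for the others by size of change, the 6 of highest level, the 3 with the shortest and longest introns and shortest first exons, and the 3 with the lowest (from 10 TPM on) and highest SD over groups. Alternatives were DESeq2 1.42.0, no fold minimum, no low-count filter, a replicate block, leaving out each library or those under 1000000 counts, an intron of 20 to 1000 bases, other pseudocounts and units, and, chosen after seeing the data, leaving out the 5 libraries that stood apart. Counts give counting error only where libraries are shallow, and the 70901 counts of X-33 methanol C limit its low genes. Python 3 with pandas 2.3.3 and numpy 2.4.6 was used for levels.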

Additional observations from a re-analysis of the deposited data

Results flagged for a closer look

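A direct test of the difference found 42 two-exon genes whose response to methanol was unequal in Cluster 2 and the reference strains (edgeR, adjusted p under 0.05 and at least 2-fold), which is 20.1% of them against 18.3% of all genes tested. The 6 named ones differed by 2.98 (GQ67_01923), 2.79 (GQ67_04719), 2.47 (GQ67_02949), −3.00 (GQ67_00214), −2.78 (GQ67_04324) and −2.38 (GQ67_04159) on the log2 scale. The values of GQ67_02949 rest on levels of at most 4.23 TPM. Without the 5 libraries that stood apart the number was 69 (33% against 29.7% of all genes), a setting chosen after seeing the data. It takes out reference methanol libraries that lay toward Cluster 2, so it is no independent check.

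In the 4 groups with 4 to 10 libraries, the level difference and the share of two-exon genes were searched for libraries far from the rest, 8 searches in all, and 0 exceeded the limit. Chance alone gives about 1 in 20.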

How the results depend on the processing

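Without a fold minimum, the two-exon genes called were 171 in methanol against 48 h glycerol, 174 at 48 h against 24 h glycerol, 98 for the difference in methanol response, 93, 74 and 131 in Cluster 2 and 80, 67 and 109 in Y-17741 (24 h glycerol, 48 h glycerol and methanol), since changes under 2-fold then counted. In the first of these, 81.8% of two-exon genes were called against 83.3% of all genes, and in the second 83.3% against 83.1%. The response difference had 46.9% against 42.8%. In the same order of conditions, Cluster 2 had 44.7% against 49.9%, 35.4% against 34.1% and 62.7% against 62%. Y-17741 had 38.5% against 35.7%, 32.1% against 34.8% and 52.2% against 53.5%. Replicate letters were shared between groups, and pairing by letter was not taken up, since not every pair of 1 letter correlated: the median correlation of deviations between conditions of a strain was −0.018 over 83 pairs of 1 letter and 0.006 over 234 pairs of different letters. Between strains in 1 condition it was 0.019 over 407 pairs of 1 letter (−0.695 to 0.889, 137 over 0.1) and −0.008 over 1153 pairs of different letters (260 over 0.1). With the letter as a replicate block, the Cluster 2 count at 48 h glycerol was 5 (210 over all genes, against 230 without the block). GQ67_02799 there had −0.94, below 2-fold. The other 8 counts stayed within 1.5 times, for example 48 in methanol against 48 h glycerol. Without the 5 libraries that stood apart (chosen after seeing the data), the response difference had 69 calls (1511 over all genes, against 931 with them). Cluster 2 at 48 h glycerol then had 4 (207 over all genes, against 230 with them). In methanol, calls were 65 in Cluster 2 (13 of them higher, 1531 over all genes) and 58 in Y-17741 (26 higher, 1542 over all genes). Since the reference methanol libraries left out lay toward Cluster 2, the larger counts against Cluster 2 are no independent check. Calls under RLE size factors, DESeq2, no low-count filter and without libraries under 1000000 counts stayed within 1.5 times.

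Leaving out 1 library at a time gave 43 to 52 calls in methanol against 48 h glycerol, 54 to 57 at 48 h against 24 h glycerol, 34 to 52 for the response difference, 8 to 12, 4 to 10 and 42 to 59 in Cluster 2 and 11 to 12, 21 to 36 and 47 to 52 in Y-17741. Shares over all genes are not given for these fits, so a shift of two-exon genes cannot be told from one of all genes. The level difference ran from 0.69 to 0.70, 0.47 to 0.49 and 0.51 to 0.53, and the share from 8.21% to 8.58%, 5.63% to 5.65% and 4.15% to 4.38%, in the order of conditions above. The 24 h share was 7.96% without the 2 genes of overlapping exons and 7.36% with CPM in place of TPM. Without the 10 highest two-exon genes the shares were 4.81%, 3.62% and 2.91%. The causes were not tested.

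Over 65 pairs of a named gene and a comparison, 2674 of 2705 alternatives kept direction and call, 30 lost the call and 1 turned the direction: GQ67_03045 in Y-17741 at 48 h glycerol was −0.11 without Y-17741 48 h glycerol B and 2.60 without D. Depth limits the genes under a few TPM (GQ67_01923, GQ67_02949 and GQ67_03045) and the 48 h glycerol comparison of Y-17741, with its 2 libraries.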
